A study of Mus musculus with 6 samples.

Results

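Brown adipocytes and the beige adipocytes that appear within white fat both burn fuel for heat with the uncoupling protein Ucp1, but they arise from different precursor cells. Classical brown adipocytes come from a *Myf5*-expressing lineage shared with skeletal muscle, and beige adipocytes mostly do not. Panels of marker genes were drawn up to tell the lineages apart independently of the heat-producing genes that both share. Many of these markers are transcription factors or surface proteins that other cell types of fat tissue also carry. The 10 such markers examined in inguinal white adipose tissue (iWAT) were 6 of the beige panel (*Tmem26*, *Tnfrsf9*, *Cited1*, *Tbx1*, *Klhl13* and *Shox2*) and 4 of the classical brown panel (*Zic1*, *Lhx8*, *Mpzl2* and *Epsti1*). Each was taken from the row of the gene table with exactly that symbol, without regard to its values. Of the 10 genes, 9 had a locus among the 19445 loci of the table, each on 1 row. No row carried the symbol *Tmem26*, which was not analysed here.

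RNA-Seq was done on iWAT of 3 *Hlx* transgenic mice and 3 wild-type littermates, labelled as males of 12 weeks, with 1 library per mouse. The transgenic mice carried full-length *Hlx* cDNA, which encodes a homeodomain transcription factor, behind the *aP2* (*Fabp4*) promoter, on a C57BL/6 × SJL background backcrossed to C57BL/6. That promoter drives the transgene in fat depots in general, and the methods do not say how many transgenic founder lines the sequenced mice came from. The labels and methods name no other allele or treatment that separated the groups. Expression is given as FPKM, a read density scaled to transcript length and sequencing depth, so levels can be compared between genes per length.

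*Hlx* was at 110, 79.6 and 99.5 FPKM in transgenic replicates 1 to 3 and at 6.88, 7.35 and 8.14 FPKM in the wild-type replicates, as the labels state. *Xist*, the X-inactivation transcript normally made in females, lay between 20.2 and 33.6 FPKM in all 6 mice, and the 28 Y-chromosome loci all had 0 FPKM, so the libraries went against the label male in both genotypes alike. The fat-cell genes *Adipoq* and *Fabp4* were abundant in every mouse, with lowest values of 1279 and 19297 FPKM. Judged from the step between the lowest values, which 1 read makes, the libraries corresponded to about 16.7 to 27.8 Mreads (read numbers in units of 1e6) in the transgenic mice and 22.9 to 34.2 Mreads in the wild-type mice. These are estimates, and transgenic replicates 1 and 3 were the shallowest. The tissue was sequenced whole, so fewer cells of a type and less RNA per cell cannot be told apart.

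The marker levels spanned a wide range. In wild-type iWAT *Epsti1* was the highest at 58.1 ± 14.0 FPKM (SD, n = 3, as for all values with ±), followed by *Cited1* at 30.8 ± 13.6, *Klhl13* at 15.9 ± 0.589, *Shox2* at 9.20 ± 1.02, *Mpzl2* at 7.52 ± 2.23, *Tbx1* at 3.04 ± 0.790, *Tnfrsf9* at 2.53 ± 0.368 and *Lhx8* at 1.92 ± 0.384 FPKM. Among neighbours in this order, the mice overlapped between *Epsti1* and *Cited1*, *Cited1* and *Klhl13*, *Shox2* and *Mpzl2*, *Tbx1* and *Tnfrsf9*, and *Tnfrsf9* and *Lhx8*. In transgenic iWAT *Epsti1* was again the highest at 46.8 ± 9.90 FPKM, and *Mpzl2* stood second in the order, at 19.7 ± 3.76. *Mpzl2*, *Cited1*, *Shox2* and *Klhl13* overlapped from each to the next there, whereas *Tbx1*, *Tnfrsf9* and *Lhx8* were separate from their neighbours. *Zic1*, a zinc-finger transcription factor of the classical brown panel, was too low to measure. It was listed at 0 in 5 mice and at 0.00838 FPKM in wild-type replicate 2, equivalent to about 1.61 reads over its longest annotated transcript. With only that value over 0, the exact permutation test cannot tell the genotypes apart. It lies on chromosome 9 from 91360345 to 91365799 of mm10.

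**Figure D1:**
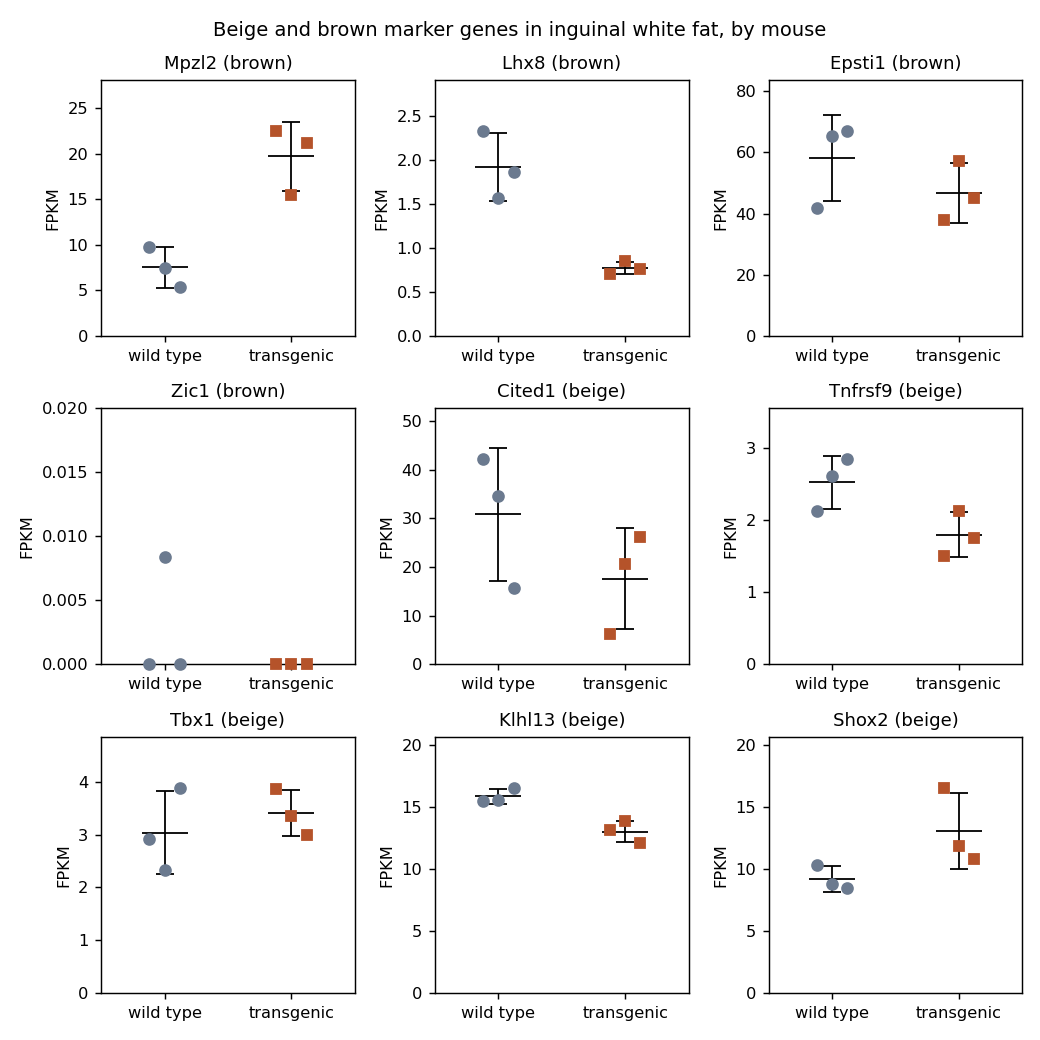
FPKM (vertical axis, linear, from 0) of the 9 markers with a locus in wild-type (circles) and transgenic (squares) iWAT, 1 point per mouse, with the mean and SD of 3 mice as bars except for *Zic1*. All 3 transgenic mice lie above the controls for *Mpzl2* and *Shox2* and below them for *Lhx8* and *Klhl13*, and *Zic1* is at 0 in 5 mice.

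The genotypes differed at 2 of the 8 markers that could be tested, both of the classical brown panel and in opposite directions. *Mpzl2* was higher and *Lhx8* was lower in transgenic iWAT. At the other 6, including all 5 beige panel genes tested, the difference did not pass an adjusted p under 0.05 over the 11692 loci with a mean over 1 FPKM in at least 1 genotype (limma on log2(FPKM + 1)). Over all those loci 11.6% were called higher and 7.03% lower, so 1 call in each direction among 8 genes is a share near the background. Values of the genotypes did not overlap at 4 of the 8 markers (*Mpzl2*, *Lhx8*, *Klhl13* and *Shox2*), against 42.9% of all tested loci. The median log2 fold change of the 8 was -0.28, beside -0.01 for all tested loci. With 3 mice against 3 the exact two-sided permutation test of 1 gene cannot give a p under 0.1, which it gave for these 4 genes. The p-values rest on single mice as replicates.

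**Figure D2:**
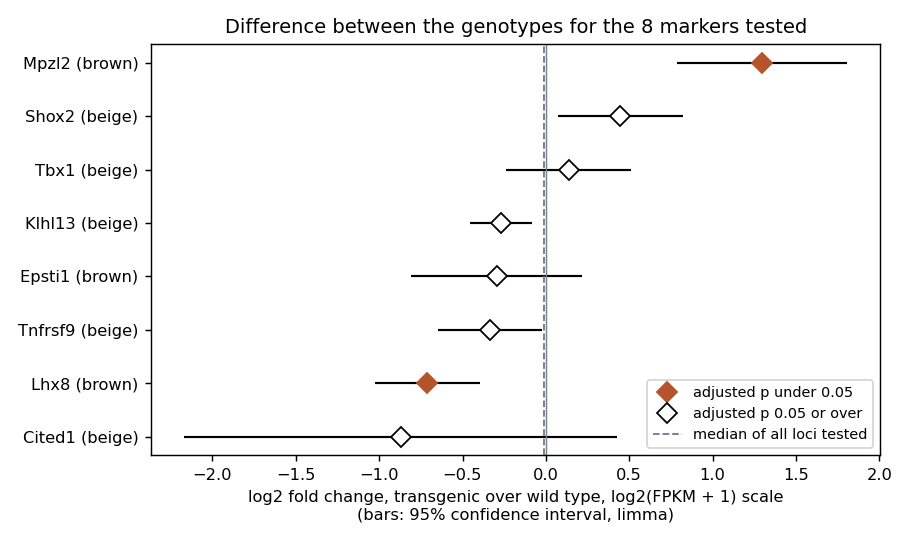
Log2 fold change, transgenic over wild type, on the log2(FPKM + 1) scale (horizontal axis) for the 8 markers tested, with 95% confidence intervals from limma and filled symbols for an adjusted p under 0.05. *Mpzl2* at 1.30 and *Lhx8* at -0.71 are the filled symbols, and the widest interval is that of *Cited1*, from -2.17 to 0.43.

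*Mpzl2* encodes a small adhesion protein of the immunoglobulin family, known as epithelial V-like antigen or Eva1, and serves as a brown adipocyte marker. Its locus on chromosome 9 runs from 45042344 to 45054043. It was at 22.5, 15.4 and 21.2 FPKM in the transgenic mice and at 9.79, 7.45 and 5.33 FPKM in the wild-type mice. The lowest transgenic mouse was thus above the highest control, and the means stood in a ratio of 2.62. The log2 fold change was 1.30 (standard error 0.22, 95% confidence interval 0.78 to 1.81, adjusted p = 0.00894, limma). With each mouse left out in turn it stayed between 1.10 and 1.48 and was called each time, with an adjusted p of at most 0.0380. Without the filter on low values, which raises the number of loci tested to 19445, the same fold change had an adjusted p of 0.0594. Since *Mpzl2* is also an epithelial gene, the epithelial markers are given beside it. Their 14 loci summed to 182, 250 and 375 FPKM in the transgenic mice and 424, 373 and 295 FPKM in the controls, and none of the 14 was called by limma in either direction (3 had an unadjusted p under 0.05). The controls had the same order by *Mpzl2* as by these markers, whereas the transgenic mouse with the most *Mpzl2*, replicate 1, had the least of them. The loci with the profile nearest to that of *Mpzl2* across the 6 mice were *Adora1*, which encodes the adenosine A1 receptor, and *Lyrm5*, with root mean square differences of 0.10 and 0.13 on the centred log2 scale.

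*Lhx8*, a LIM-homeobox transcription factor used as a classical brown marker, was the least abundant marker tested. It was at 0.709, 0.850 and 0.762 FPKM in the transgenic mice and at 2.33, 1.57 and 1.86 FPKM in the controls. Every transgenic mouse was below every control, and the wild-type mean was 2.48 times the transgenic mean. The log2 fold change was -0.71 (standard error 0.13, 95% confidence interval -1.03 to -0.39, adjusted p = 0.0134, limma). On this scale the pseudocount of 1 understates the change of so low a gene, and with a pseudocount of 0.1 the log2 fold change was -1.19. *Lhx8* passed the filter only through its wild-type mean, so it was tested only because that group was the higher one. It passed a filter on the mean of all 6 mice as well, and its call held in all 14 alternative analyses, with a highest adjusted p of 0.0482. The values amount to roughly 25.5 to 49.0 reads in the transgenic mice and 93.3 to 111 in the controls. The nearest profiles were those of *Abcc3*, a transporter gene, and *Prr5*, both with a root mean square difference of 0.06.

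The locus of *Lhx8* lies on chromosome 3 from 154306294 to 154330560, on the minus strand. Homeodomain proteins such as Hlx commonly bind DNA with a TAAT core, so the 250 bases before each marker's RefSeq start (GRCm38.p6) were searched for TAATTA, which reads the same on both strands, and for TAAT on either strand, which also counts every TAATTA. Of all 32851 windows of this length, 4.84% held TAATTA and 54.9% held TAAT. The *Lhx8* window held neither. Among the 17 windows of the 9 markers with a RefSeq entry, 1 held TAATTA, that of the first *Tnfrsf9* start, and 9 held TAAT. *Mpzl2* had no entry. Both windows are printed 5′ to 3′ in the direction of transcription, *Lhx8* as the called gene and *Tnfrsf9* for its match, whose letters are in capitals. The *Lhx8* stretch, chr3:154330660-154330810 (minus strand), is limited to the bases beyond the GENCODE gene. The *Tnfrsf9* stretch, chr4:150919905-150920154 (plus strand), lies within an intron of a longer GENCODE transcript, and its match begins at position -113 from the start.
Lhx8: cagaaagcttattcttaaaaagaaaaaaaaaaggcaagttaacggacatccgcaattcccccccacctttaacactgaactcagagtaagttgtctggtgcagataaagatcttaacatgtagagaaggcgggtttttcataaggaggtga
Tnfrsf9: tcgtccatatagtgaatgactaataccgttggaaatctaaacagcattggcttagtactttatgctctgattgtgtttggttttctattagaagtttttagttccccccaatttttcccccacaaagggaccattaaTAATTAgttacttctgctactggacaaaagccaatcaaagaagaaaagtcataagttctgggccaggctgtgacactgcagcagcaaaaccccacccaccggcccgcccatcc
A match is a description of letters in these windows only. The paper searched otherwise, with a matrix of the base preferences of Hlx, inside Prdm16 peaks of longer promoter stretches. A window without these letters may therefore still hold a site of that kind.

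*Epsti1*, an interferon-responsive gene of the brown panel, on chromosome 14 from 77904239 to 78002656, was the most abundant marker. It was at 37.8, 57.4 and 45.1 FPKM in the transgenic mice and at 41.9, 65.3 and 67.0 FPKM in the controls. The genotypes overlapped, and the log2 fold change was -0.30 (standard error 0.22, 95% confidence interval -0.81 to 0.22, adjusted p = 0.361, limma). The interval spans folds from 0.570 to 1.16, so a moderate fall and no change are both within it.

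Among the beige panel genes, *Cited1* was the most abundant and the least even. It encodes a transcriptional co-regulator that is also made in mammary epithelium, and its locus on chromosome X runs from 102247379 to 102252243. It was at 6.17, 20.5 and 26.2 FPKM in the transgenic mice and at 42.1, 34.6 and 15.7 FPKM in the controls. Transgenic replicates 2 and 3 were above wild-type replicate 3, and the coefficient of variation was 58.5% in transgenic and 44.2% in wild-type iWAT. Its spread within genotypes, on the log2 scale, was larger than that of 99.2% of tested loci. The log2 fold change was -0.87 (standard error 0.55, 95% confidence interval -2.17 to 0.43, adjusted p = 0.294, limma), and it moved from -1.28 without wild-type replicate 3 to -0.29 without transgenic replicate 1.

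*Tnfrsf9*, also called CD137, is a TNF-receptor family protein best known as a costimulatory receptor of activated T cells and used as a surface marker of beige cells. Its locus on chromosome 4 runs from 150920155 to 150946102. It was at 1.51, 2.13 and 1.76 FPKM in the transgenic mice and at 2.13, 2.62 and 2.85 FPKM in the controls. Only transgenic replicate 2 reached the lowest control. The log2 fold change was -0.33 (standard error 0.13, adjusted p = 0.118, limma), and its 95% confidence interval of -0.65 to -0.02, unadjusted for the number of loci, excluded 0.

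*Tbx1*, a T-box transcription factor, was at 3.86, 3.36 and 2.99 FPKM in the transgenic mice and at 2.91, 2.32 and 3.89 FPKM in the controls. The highest value of all belonged to a control, so the genotypes overlapped. The log2 fold change was 0.14 (standard error 0.16, 95% confidence interval -0.24 to 0.51, adjusted p = 0.563, limma). The interval spans folds from 0.849 to 1.43 on the log2(FPKM + 1) scale. With a pseudocount of 0.1 the log2 fold change was 0.18, and with each mouse left out it ran from 0.006 to 0.28. The locus of *Tbx1* lies on chromosome 16 from 18581584 to 18586969.

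*Klhl13*, a BTB-kelch adaptor of a Cullin-3 ubiquitin ligase, was the most even marker, on chromosome X from 23219271 to 23365223. It was at 13.1, 13.9 and 12.1 FPKM in the transgenic mice and at 15.5, 15.6 and 16.6 FPKM in the controls. The genotypes did not overlap, although the log2 fold change was only -0.27 (standard error 0.08, 95% confidence interval -0.45 to -0.08). Its adjusted p of 0.0554 (limma) was just over the threshold. It was 0.0419 after quantile normalization and 0.0315 with sample quality weights. In every other of the 14 alternatives it stayed over the threshold, up to 0.159 without transgenic replicate 3.

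*Shox2*, a homeobox transcription factor of limb and heart development that also marks inguinal fat, was at 16.6, 11.8 and 10.8 FPKM in the transgenic mice and at 10.4, 8.78 and 8.45 FPKM in the controls. The genotypes did not overlap, by a narrow gap. The log2 fold change was 0.45 (standard error 0.16, 95% confidence interval 0.07 to 0.82, adjusted p = 0.0927, limma), and it was 0.28 without transgenic replicate 1, the highest mouse. The table gives *Shox2* the same interval as *Rsrc1*, on chromosome 3 from 66971262 to 67358403. In GENCODE *Shox2* itself spans 66971727 to 66981771 on the minus strand and overlaps *Rsrc1* on the plus strand at its start. The library kit does not keep strand, so reads of the overlap cannot be told apart. *Rsrc1* was at 14.1, 13.3 and 14.6 FPKM in the transgenic mice and 11.5, 12.4 and 11.1 FPKM in the controls, and differed by 0.24 on the log2 scale (adjusted p = 0.0716, limma).

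Genes of other cell types ordered the mice as some markers did. Within each genotype the order of the mice by *Cited1* was their order by the summed epithelial markers. Of the 14 epithelial genes tested, 7 shared that order, against 2.60% of all tested loci. These genes make up the sum and may vary together, so they are not separate matches. Among the 7 was *Epcam*, which marks epithelial surfaces. *Epcam* was at 10.1, 16.7 and 34.9 FPKM in the transgenic mice and 34.3, 25.3 and 20.4 FPKM in the controls. *Tnfrsf9* and *Epsti1* both followed the order of the summed lymphocyte markers, which were 269, 405 and 335 FPKM in the transgenic mice and 383, 478 and 538 FPKM in the controls. Both markers ordered the mice identically in each genotype, so these are not separate agreements. Of the 13 lymphocyte genes tested, which are likewise part of the sum, 3 shared that order, against 4.92% of all tested loci. *Epsti1* did not follow the summed interferon-inducible genes in the transgenic mice, and 1 of those 19 genes shared its order in both genotypes. These matches were noticed among 96 pairs of a marker and a list, 7 of which agreed in order in both genotypes. With 3 mice per genotype few orders are possible, so some pairs are expected to agree by coincidence. The remaining agreeing pairs were *Lhx8* with the other beige panel genes and with the progenitor and fibroblast markers, *Shox2* with the pan-adipocyte markers, and *Klhl13* with the interferon-inducible genes. The summed macrophage markers were lower in transgenic mice, at 358, 506 and 377 FPKM, than in controls, at 785, 749 and 956 FPKM. The part of these cell types in the marker values was not tested.

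**Figure D3:**
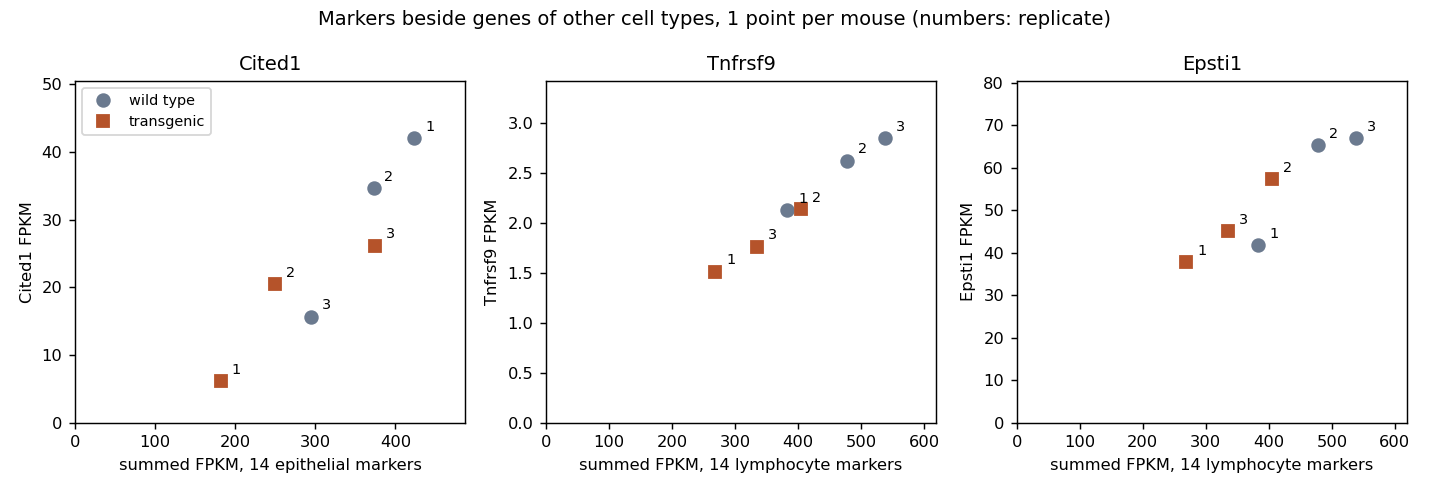
FPKM of *Cited1* against the summed FPKM of 14 epithelial markers, and of *Tnfrsf9* and *Epsti1* against the summed FPKM of 14 lymphocyte markers, with 1 point per mouse (circles wild type, squares transgenic, numbered by replicate, all axes linear from 0). Within each genotype the mice have the same order on both axes of each panel, from 6.17 to 26.2 FPKM of *Cited1* in the transgenic mice.

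The other genes of the panels behaved unevenly. Of the 5 other beige panel genes, *Ear2* had no row of its own. A row that combines it with *Ear3*, described further below, was called lower (log2 fold change -1.65, adjusted p = 0.00338, limma). None of the 4 tested was called by limma (1 had an unadjusted p under 0.05). Their log2 fold changes ran from -0.55 for *Cd40* to -0.05 for *Slc29a1*. That of *Slc29a1* turned to 0.02 without wild-type replicate 1 and 0.04 without transgenic replicate 1. Without wild-type replicate 1, *Cd40* was called lower (-0.71, adjusted p = 0.0473, limma). Of the other classical brown panel genes, 2 of 7 tested were called higher and none lower. That list holds *Prdm16*, to which the paper gives a central part in the browning of white fat. A rise of this gene therefore cannot tell the lineages apart. The paper considers the rise of *Prdm16* in transgenic iWAT likely secondary to browning. It reports similar *Prdm16* levels in primary iWAT adipocyte cultures of transgenic and control mice. *Oplah*, which encodes 5-oxoprolinase, rose from 26.5 ± 6.28 to 73.6 ± 7.60 FPKM (log2 fold change 1.46, adjusted p = 0.00215, limma), and *Prdm16*, a transcriptional co-regulator of brown fat identity, from 1.54 ± 0.240 to 3.25 ± 0.887 FPKM (0.73, adjusted p = 0.0258). The call of *Prdm16* was lost without transgenic replicate 3 and without wild-type replicate 2 or 3, with adjusted p-values of 0.0658, 0.0711 and 0.0862, and without the filter on low values (0.0907). Without transgenic replicate 1 another gene of the list was called lower. *Myf5* was listed at 0 in all 6 mice, which by itself does not tell the lineage from which the fat cells came.

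In contrast, the genes shared by brown and beige cells differed strongly. Of 11 tested, 10 rose and none fell, with a median log2 fold change of 2.61, and the count stayed at 10 with each mouse left out. Without the filter on low values the count was 7. *Ucp1* was at 634, 541 and 600.1 FPKM in the transgenic mice and at 57.8, 17.5 and 35.5 FPKM in the controls, and its log2 fold change of 4.12 was larger than that of any of the 8 lineage markers. The exception was *Dio2*, the deiodinase that makes active thyroid hormone, at 0.521, 3.22 and 1.33 FPKM in the transgenic mice and 3.65, 0.953 and 2.53 FPKM in the controls (adjusted p = 0.576). Of the white and depot identity genes, 2 of 8 tested fell and none rose. These were *Slc7a10*, an amino acid transporter of white adipocytes (log2 fold change -4.03), and *Retn*, the hormone resistin (-2.02). The *Hox* genes of the list, *Hoxc8*, *Hoxc9* and *Hoxc10*, were not called, their differences being -0.18, -0.19 and 0.40 on the log2 scale. Of the pan-adipocyte markers 2 of 7 were called lower, *Adipoq* at -0.85 and *Lpl* at -0.67. Of these genes 1 was called without transgenic replicate 1 or wild-type replicate 1, and 0 without transgenic replicate 3 or wild-type replicate 2. Their count was also 0 without the filter on low values.

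**Figure D4:**
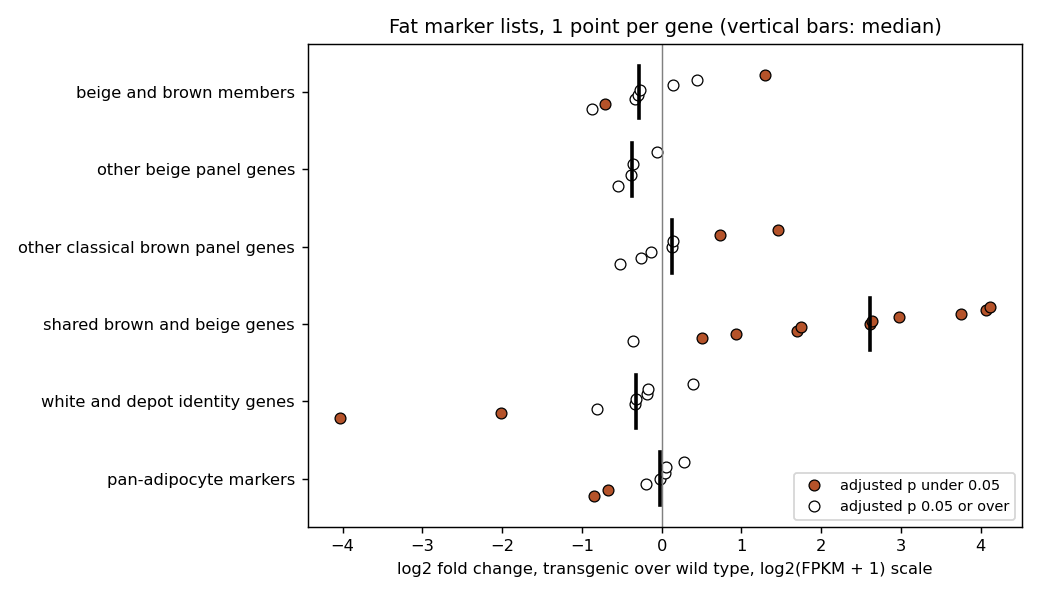
Log2 fold change, transgenic over wild type, on the log2(FPKM + 1) scale (horizontal axis) for each tested gene of 6 fat marker lists, with filled points for an adjusted p under 0.05 and vertical bars at the median of each list. The lineage markers and the other panel genes lie mostly within 1 log2 unit of 0, while the median of the shared brown and beige genes is 2.61.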

How the data were processed

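The authors deposited 1 FPKM table, with a value per gene locus and mouse, for iWAT libraries made with a TruSeq v2 kit. The submitters' processing notes name CASAVA 1.8.2, TopHat2 2.0.9, Bowtie2 2.1.0, Cufflinks 2.2.1 and the build mm10. The annotation and options are not given in the sources used here. FPKM is not a count, so no count test was run, and the depth was estimated from the commonest lowest value times length among loci with 1 GENCODE vM21 transcript. Listed starts were raised by 1 to count from 1.

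From the deposited values log2(FPKM + 1) was fitted with limma 3.58.1 in R 4.3.3 (genotype only, eBayes with trend, two-sided, Benjamini-Hochberg adjustment) over the 11692 loci with a mean over 1 FPKM in at least 1 genotype. The procedure was tested on simulated data with independent normal noise. Known changes were set only at more abundant loci, so low genes such as *Lhx8* and *Tnfrsf9* were not covered. Single values used an exact permutation test over 20 arrangements. Where 1 symbol had several loci, the most abundant was used. The genes named were the 10 markers, *Hlx*, the called genes with the 4 largest changes of each list (not all are printed), the 2 loci nearest in profile to each called marker, loci overlapping a marker, and *Xist* with the Y loci as a sex check. *Cd40*, *Slc29a1*, *Dio2*, the *Hox* genes, *Myf5*, *Fabp4* and *Epcam* are list genes named after their values were seen. The markers, lists and tests were chosen with earlier results of these data known. The replicate numbers are labels of different animals. Tools for drawing were matplotlib 3.10.9 in Python 3.11.15, and promoter sequences are those of RefSeq.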

Additional observations from a re-analysis of the deposited data

How the results depend on the processing

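The fold changes of the 8 tested markers and of the other genes named with one, and the counts of calls, were recomputed under 14 alternatives: a pseudocount of 0.1, no filter, a filter on the mean of all 6 mice, sample quality weights, median-ratio scaling, quantile normalization, eBayes with no trend, a replicate block and each mouse left out. Levels, summed levels, overlaps and mouse orders were not. None of these fold changes turned direction except that of *Slc29a1*, which was -0.05 and became 0.05 with quality weights, 0.04 without transgenic replicate 1 and 0.02 without wild-type replicate 1, and was called in none. The count of markers called higher was 1, but 0 without the filter, where more loci are tested, and 2 with the replicate block (*Shox2*, adjusted p = 0.0413, limma). The count called lower was 1, but 2 after quantile normalization and 2 with quality weights (*Klhl13*). The cause of the last 3 was not tested. With each mouse left out both counts stayed at 1. Whether the replicate numbers pair the mice cannot be settled with 3 mice per genotype. Deviations of same-numbered mice correlated at 0.01, 0.03 and 0.07, and some mice correlated better with another number (up to 0.13). With the block, 8 skeletal muscle markers were called higher instead of 0, 1 white and depot identity gene (*Hoxc10*) higher instead of 0, 3 macrophage markers lower instead of 5, no interferon-inducible gene in either direction instead of 1 in each, and no endothelial marker higher instead of 2. Of 336 recomputed counts of calls in the other lists, 53 moved by more than 1.5 times. The estimated reads of *Lhx8* and *Tnfrsf9* were few, and fewest in transgenic replicates 1 and 3. *Zic1* had an estimated 1.61 reads in wild-type replicate 2 and 0 in every other mouse. Whether depth limited these values was not tested.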

Other observations

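Immune and vascular genes of the same tissue moved in part. Of 8 macrophage markers tested, 5 were called lower in transgenic iWAT and none higher, with a median log2 fold change of -0.59. *Lyz2*, the lysozyme of myeloid cells, was at 262, 384 and 277 FPKM in the transgenic mice and at 613, 593 and 755 FPKM in the controls (log2 fold change -1.10, adjusted p = 0.00823, limma). *Cd68*, a lysosomal protein of macrophages, fell by 0.86 on the log2 scale (adjusted p = 0.00400, limma). The calls of these 2 genes held in all 14 alternatives. The count was 2 without transgenic replicate 1, transgenic replicate 3 or wild-type replicate 3, 3 without wild-type replicate 1 and 2 without the filter on low values. A row that combines the symbols *Ear2* and *Ear3*, ribonucleases of eosinophils and macrophages of which *Ear2* is in a beige panel, was at 4.57, 6.49 and 6.13 FPKM in the transgenic mice and at 27.5, 15.6 and 18.4 FPKM in the controls (log2 fold change -1.65, adjusted p = 0.00338, limma). It was noticed after the values were seen, and reads of the 2 genes cannot be told apart in it.

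Of 13 lymphocyte markers, the B-cell genes *Ms4a1* and *Cd22* were called lower (log2 fold changes -0.76 and -0.75). That count fell to 0 without transgenic replicate 1 or 3 and to 1 without wild-type replicate 2 or 3, and was 4 without transgenic replicate 2 or wild-type replicate 1. Of 19 interferon-inducible genes, *Rsad2* was called higher at 0.73 and *Ifih1* lower at -0.42, and both calls were lost without transgenic replicate 1 or 3, that of *Ifih1* also without any 1 of the wild-type mice, and both without the filter on low values (adjusted p = 0.0819 and 0.0956, limma). Of 8 endothelial markers, *Emcn* and *Kdr* were called higher, at 0.50 and 0.35, and *Cldn5* lower at -0.76. Of these, the count called higher was 0 without transgenic replicate 3 or wild-type replicate 2 1 without any other single mouse and 0 without the filter on low values, while *Cldn5* was called each time. None of the 9 progenitor and fibroblast markers tested was called by limma (2 had an unadjusted p under 0.05), but 3 were called lower without transgenic replicate 2. The 10 skeletal muscle markers tested had positive log2 fold changes and none was called by limma (2 had an unadjusted p under 0.05), although 8 were called higher with the replicate number as a block. Summed over the list, transgenic replicates 1 to 3 had 115, 801 and 159 FPKM and the controls 9.71, 175 and 48.6 FPKM.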
